A study of Mus musculus with 6 samples.

Results

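The transcripts described here are those of 8 heat shock chaperones and 2 cold-inducible RNA-binding proteins in the liver of fasted mice. The chaperones are Hsp90aa1, Hsp90ab1, Hspa8, Hspa1b, Hsph1, Dnajb1, Hspd1 and Hspe1, and the cold-inducible genes are Cirbp and Rbm3. These 10 genes were chosen by symbol, as textbook members of the 2 kinds, with earlier results of these data known. They were found through their Ensembl identifiers among 55471 gene lines. All 10 passed the filter on low counts and were among the 13812 genes tested. Liver RNA was sequenced from male mice of the inbred strain C57BL/6J, and every animal was wild type (genotype WT). Of these, 3 livers were taken after a 16 hour fast and 3 after a 4 hour fast. Each library is read as 1 animal, since the series describes 3 animals a group. The age of the mice, the clock time at which each fast began or ended and their body temperature were not given in the sources used here.

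Heat shock chaperones help other proteins fold, stop them from clumping and hand damaged ones on for removal. Many of their genes share a switch, the transcription factor HSF1, which binds heat shock elements in their promoters when unfolded proteins build up or temperature goes up. CIRBP and RBM3 are small RNA-binding proteins whose transcripts accumulate when mammalian cells are cooled mildly. In mouse liver, transcripts of HSF1 targets and of Cirbp are known to cycle each day with body temperature, at opposite phases.

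The heat shock elements that HSF1 binds are runs of the unit GAA and its inverse TTC. Promoters are shown for a chaperone pair member, an HSP70 partner, the inducible HSP70 and Cirbp, so that windows with a triple, with a single pair and with neither can be seen. RefSeq windows (build GRCm38.p6) from 250 bases before to 50 bases after a transcription start were at hand for 6 of the 10 genes. Capitals mark units that stand in an inverted pair or triple, read 5′ to 3′ on the gene's own strand.
Hspe1, chr1:55087898-55088197, plus strand: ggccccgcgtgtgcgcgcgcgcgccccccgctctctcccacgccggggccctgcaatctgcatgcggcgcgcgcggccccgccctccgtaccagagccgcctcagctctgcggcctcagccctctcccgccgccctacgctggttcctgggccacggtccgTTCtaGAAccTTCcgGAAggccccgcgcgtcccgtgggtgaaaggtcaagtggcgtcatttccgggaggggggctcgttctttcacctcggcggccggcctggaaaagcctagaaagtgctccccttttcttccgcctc
Hsph1, chr5:149636287-149636586, minus strand: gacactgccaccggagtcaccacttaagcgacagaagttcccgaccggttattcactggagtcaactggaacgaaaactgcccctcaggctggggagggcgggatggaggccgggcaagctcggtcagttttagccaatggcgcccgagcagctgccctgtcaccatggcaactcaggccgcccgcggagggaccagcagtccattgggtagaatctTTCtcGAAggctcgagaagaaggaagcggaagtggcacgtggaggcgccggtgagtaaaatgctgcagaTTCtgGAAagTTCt
Hspa1b, chr17:34959189-34959488, minus strand: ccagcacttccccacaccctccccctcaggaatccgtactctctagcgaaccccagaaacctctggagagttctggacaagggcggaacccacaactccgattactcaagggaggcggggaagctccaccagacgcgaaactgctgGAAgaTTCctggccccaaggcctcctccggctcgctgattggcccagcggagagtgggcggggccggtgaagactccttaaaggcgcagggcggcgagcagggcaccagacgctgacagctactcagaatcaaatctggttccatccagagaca
Cirbp, chr10:80167589-80167888, plus strand: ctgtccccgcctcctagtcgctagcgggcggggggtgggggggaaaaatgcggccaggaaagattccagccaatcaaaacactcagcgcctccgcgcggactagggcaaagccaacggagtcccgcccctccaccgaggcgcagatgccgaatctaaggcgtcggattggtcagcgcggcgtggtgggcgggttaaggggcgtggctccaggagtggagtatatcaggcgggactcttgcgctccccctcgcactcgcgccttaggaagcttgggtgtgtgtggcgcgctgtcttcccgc

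The searched triples were GAANNTTCNNGAA and TTCNNGAANNTTC, and the pairs were GAANNTTC and TTCNNGAA. Each pair reads the same on both strands, each triple is the reverse complement of the other, and every triple contains both pairs. At least 1 triple occurred in 198 of the 32851 windows in the table (0.603%) and at least 1 pair in 4946 of them (15.1%). The Hspe1 window carried 2 overlapping triples, which begin at positions -89 and -84 relative to the start. Hspd1 and Hspe1 lie head to head on chromosome 1, and an Hspd1 window on the other strand held the same run from position -144. Another Hspd1 window, from a different start, held no pair and no triple. Hsph1 had a triple at position 36, downstream of its start, and a further pair at -33 in the window shown. Counted from the start of its other window, they lay at 15 and -54. Hspa1b had a single pair at -104. None of these letters occurred in either window of Cirbp or of Dnajb1, which says only that they are not in those windows.

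Gene counts summed to 16991034 to 25016855 in the 16 h libraries and to 15173653 to 26572532 in the 4 h libraries. CPM, the usual depth-scaled unit of gene counts, were scaled to a common library size with TMM factors, which correct for differences in RNA makeup between libraries. Sums over marker lists, here and below, are the exception and are in CPM of plain library totals. Alb, the albumin gene, and the other hepatocyte markers were abundant in all 6 libraries, their summed level being 81970.5 to 89665 CPM at 16 h and 86588 to 98545 CPM at 4 h. Replicate 3 of the 4 h fast stood apart in its lung transcripts. The summed level of 10 lung markers was 185 CPM in that library, against 5.84 to 8.77 CPM in the 16 h libraries and at most 6.66 CPM in the other 4 h libraries, and its most abundant marker was Scgb1a1, a club cell gene. The 10 neutrophil markers summed to 17.6 CPM there, against 2.61 to 5.24 CPM at 16 h and at most 2.63 CPM in the other 4 h libraries. S100a9 led them in that library, with 6.01 CPM, and Csf3r on the mean over all 6 libraries. The part of that tissue in the values of the chaperones was not tested, and without the library the log2 fold changes kept their sign for 8 of the 10 genes. They were then 0.83 for Rbm3, 0.69 for Cirbp, 0.48 for Hspa8 and 0.27 for Hspa1b, and that of Hsph1 was -0.18. In whole liver, a change in RNA per cell and a change in the share of a cell type cannot be told apart.

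The cold-inducible pair rose in the longer fast while the chaperones as a group did not move one way. Rbm3 rose 1.85-fold and Cirbp 1.5-fold, and the single chaperone that passed the test, Hspa8, rose 1.36-fold. By edgeR's quasi-likelihood test with Benjamini-Hochberg adjustment, at an adjusted p under 0.05, 18.7% of all tested genes were called, 9.18% higher and 9.51% lower after 16 h. Among the 8 chaperones 1 was higher, 0 were lower and 7 did not pass. That share of higher genes is near the one over all genes, while both cold-inducible genes passed, in a set chosen with earlier results known. At an unadjusted p under 0.05, 2 chaperones were lower, Hsp90aa1 and Hspe1, and DESeq2 called 0 lower. Such p-values were common, since 4453 of the 13812 tested genes had an unadjusted edgeR p of 0.0447 or less, in either direction. The median log2 fold change was -0.03 over the 8 chaperones and 0.73 over the cold-inducible pair, against -0.028 over all genes tested.

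Rbm3, on chromosome X at 8138975 to 8145880 of GRCm38, encodes an RNA-binding protein that is induced by mild cooling and that binds many messenger RNAs. It had 49.4, 61.9 and 68.4 CPM in the 16 h livers, against 31.1, 37.0 and 29.5 CPM in the 4 h livers. Every 16 h liver was above every 4 h liver, and no value lay between 37.0 and 49.4 CPM. The log2 fold change was 0.88 ± 0.14 (SE, 95% interval 0.58 to 1.19, edgeR adjusted p = 0.0014). The call held without any single library, at 0.78 to 1.02. Of the 50-base stretches of the longest Rbm3 transcript, 14.8% also occur in transcripts of 8 other genes, foremost the pseudogene Rbm3-ps (11.5% of the stretches), which held 17 counts over all libraries. All 8 genes together held 10346 counts over their whole length, against 5783 for Rbm3. How many of those fell in the shared stretches was not measured. How shared reads were placed bears on the Rbm3 value.

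Cirbp, on chromosome 10 at 80165985 to 80172786, encodes the cold-inducible RNA-binding protein, which in mouse cells is known to bind the transcript of the clock gene Clock. Its level was 43.1, 53.1 and 54.6 CPM in the 16 h livers and 30.3, 32.7 and 37.8 CPM in the 4 h livers. The groups did not overlap, and the nearest values were 43.1 CPM at 16 h and 37.8 CPM at 4 h. Its log2 fold change was 0.58 ± 0.13 (95% interval 0.30 to 0.86, edgeR adjusted p = 0.00916). Without 16 h replicate 3 the change was 0.52 and the call was narrowly lost (edgeR adjusted p = 0.0531). No 50-base stretch of its longest transcript occurs in another gene's transcript.

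Rbm3 was the higher of the pair in CPM in each 16 h liver. The count of Rbm3 over that of Cirbp in the same library was 1.15, 1.16 and 1.25 at 16 h, against 1.03, 1.13 and 0.779 at 4 h. The ratio of the pair was thus higher in each 16 h library, if by little over 4 h replicate 2. This was not tested, and 39.4% of single tested genes separated between the groups.

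**Figure D1:**
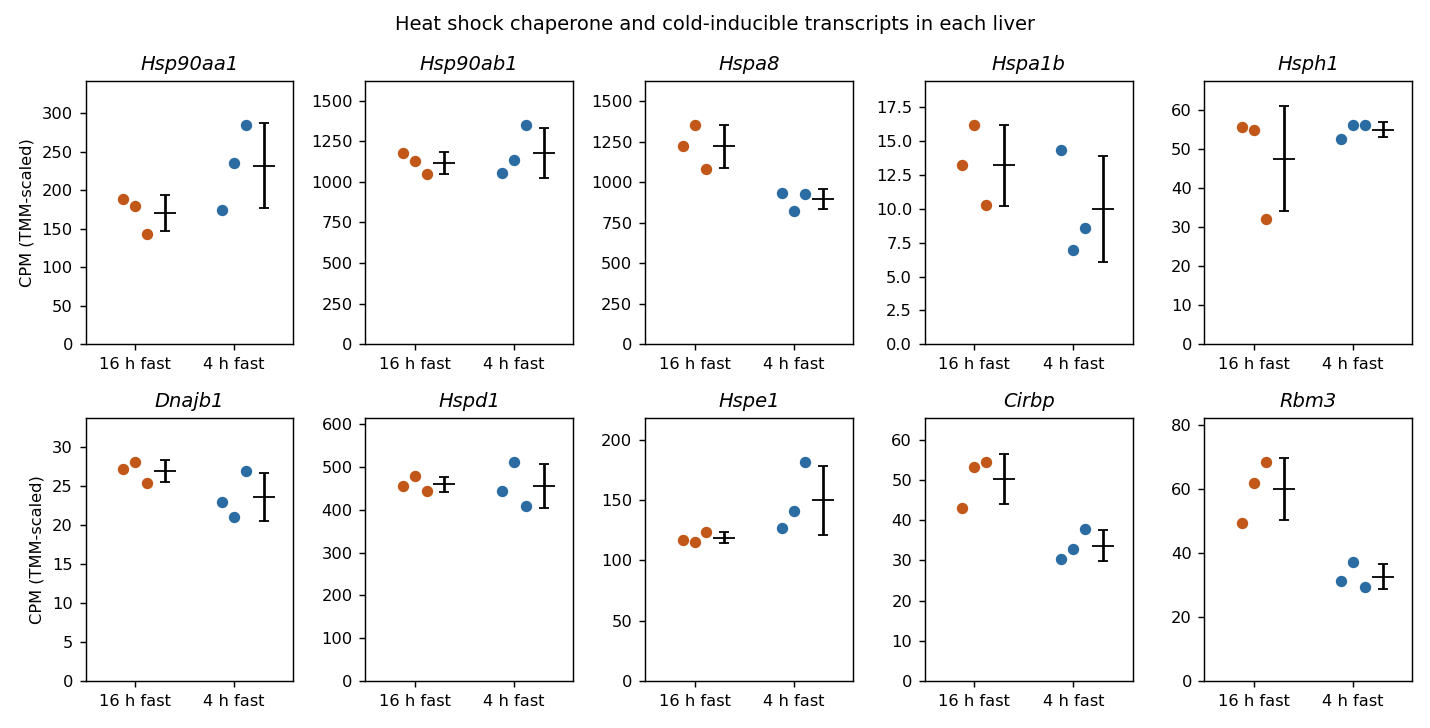
Level of each of the 10 genes in CPM (linear axes from 0) in the 3 livers of the 16 h fast (left, orange) and the 3 of the 4 h fast (right, blue), with replicates 1 to 3 from left to right and the mean and SD as a bar beside them. The groups separate for Hspa8, Cirbp and Rbm3 (16 h higher) and for Hspe1 (16 h lower), and they overlap for the other 6 genes. Over all tested genes, 39.4% separated in this way.

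HSP90 is the chaperone that finishes the folding of kinases and steroid receptors, and mice carry an inducible form, Hsp90aa1, and a constitutive form, Hsp90ab1. Hsp90aa1, on chromosome 12 at 110690605 to 110702728, had 188, 179.7 and 144 CPM in the 16 h livers, against 175, 236 and 285 CPM in the 4 h livers. The groups overlapped, since 4 h replicate 1 lay below 16 h replicates 1 and 2. It did not pass (log2 fold change -0.44 ± 0.17, 95% interval -0.82 to -0.06, edgeR adjusted p = 0.098). Without 4 h replicate 1 it passed as lower (-0.59, edgeR adjusted p = 0.0229). Without 4 h replicate 3, the library with lung transcripts, the change was -0.25 (0.293). Of its 50-base stretches 58.5% recur in 4 other genes, foremost Gm12346 with 189 counts over all libraries, against 24557 counts of Hsp90aa1 itself.

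Hsp90ab1, on chromosome 17 at 45567775 to 45573271, was among the most abundant of the 10 genes, with 1179, 1127 and 1046 CPM at 16 h and 1051, 1133 and 1350.3 CPM at 4 h. Its groups overlapped almost fully and it did not pass (-0.08 ± 0.12, 95% interval -0.35 to 0.19, edgeR adjusted p = 0.702). The sign turned to 0.04 without 4 h replicate 3. The inducible form made up less of the pair in each 16 h library than in each 4 h library. The count of Hsp90aa1 over that of Hsp90ab1 was 0.160, 0.160 and 0.137 at 16 h, against 0.166, 0.208 and 0.211 at 4 h, so that these ratios did not overlap. That separation is narrow at 4 h replicate 1 and was not tested. Of single tested genes 39.4% separated in this way, and the share among ratios of gene pairs was not worked out. Only 4.49% of the 50-base stretches of Hsp90ab1 recur in other genes, so how shared reads were placed bears on this ratio.

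The HSP70 chaperones hold unfolded stretches of protein and release them in cycles driven by ATP. Hspa8, the constitutive member on chromosome 9 at 40800984 to 40810087, had 1225, 1355 and 1085 CPM in the 16 h livers, against 937, 824 and 929 CPM in the 4 h livers. Every 16 h liver was above every 4 h liver. The log2 fold change was 0.45 ± 0.12 (95% interval 0.18 to 0.71, edgeR adjusted p = 0.0246). The call was lost without 16 h replicate 1, without 16 h replicate 2 or without 4 h replicate 2 (0.46, 0.37 and 0.41, edgeR adjusted p = 0.069, 0.12 and 0.061). Of its 50-base stretches 52.7% recur in 15 other genes, foremost Gm15459 with 1075 counts over all libraries, against 132421 counts of Hspa8 itself, and 6.09% of its exons overlap other genes, mainly Snord14e.

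Hspa1b, the stress-inducible HSP70 on chromosome 17 at 34956436 to 34959238, was the least abundant of the 10 genes. It had 13.2, 16.2 and 10.3 CPM at 16 h and 14.4, 6.96 and 8.62 CPM at 4 h, with the 4 h livers spread over a wider range than the change itself. It did not pass (0.38 ± 0.26, 95% interval -0.21 to 0.96, edgeR adjusted p = 0.342). Without 4 h replicate 1, the highest of its group, the change was 0.77 and passed (0.0337). Of its 50-base stretches 62.3% are shared with its near-identical neighbour Hspa1a, which held 48 counts over all libraries against 1479 for Hspa1b, so how reads common to both were placed bears on this value.

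Hsph1 and Dnajb1 encode partners of HSP70, the first a nucleotide exchange factor and the second a J-domain protein that starts the ATP cycle. Hsph1, on chromosome 5 at 149614287 to 149636376, had 55.7, 55.0 and 32.1 CPM at 16 h, against 52.7, 56.1 and 56.2 CPM at 4 h. All values except that of 16 h replicate 3 lay within 4 CPM of one another. It did not pass (-0.21 ± 0.18, edgeR adjusted p = 0.454), and without 16 h replicate 3 the change was 0.01. Dnajb1, on chromosome 8 at 83608193 to 83612653, had 27.1, 28.1 and 25.3 CPM at 16 h and 22.8, 20.9 and 26.9 CPM at 4 h. Only 4 h replicate 3 reached the range of the 16 h livers, and the gene did not pass (0.19 ± 0.12, 95% interval -0.08 to 0.45, edgeR adjusted p = 0.307). Without that library the change was 0.30 (0.0514).

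The mitochondrial chaperonin is built from the barrel protein of Hspd1 and the lid protein of Hspe1, whose genes face away from each other on chromosome 1. Hspd1, at 55077835 to 55088243, had 456, 479 and 445 CPM in the 16 h livers and 444, 513 and 409.6 CPM in the 4 h livers. The 16 h values all lay inside the 4 h range, and the gene did not pass (0.01 ± 0.12, 95% interval -0.24 to 0.27, edgeR adjusted p = 0.951). Its change was -0.05 without 4 h replicate 3. Of its 50-base stretches 44.8% recur in 9 other genes, foremost the pseudogene Hspd1-ps3 with 306 counts over all libraries, against 56864 counts of Hspd1 itself. Hspe1, at 55088132 to 55091307, had 117, 115 and 124 CPM at 16 h, against 127, 141 and 182 CPM at 4 h. Its groups did not overlap, yet it did not pass (-0.34 ± 0.13, 95% interval -0.63 to -0.04, edgeR adjusted p = 0.103). Without 4 h replicate 3 its change was -0.16 (0.211). The count of Hspe1 over that of Hspd1 was 0.257, 0.240 and 0.278 at 16 h, against 0.285, 0.275 and 0.444 at 4 h, and it is 4 h replicate 3 that stands away from the other 5 libraries. The exons of these neighbours overlap over 4.24% of Hspd1 and 7.60% of Hspe1, where reads could not be assigned without strand.

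**Figure D2:**
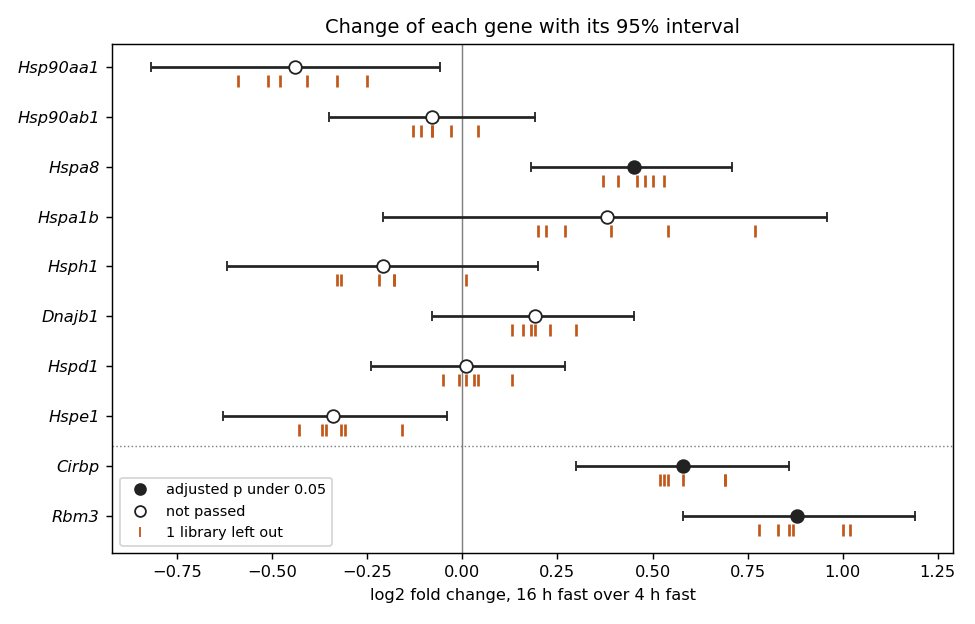
Log2 fold change of each gene, 16 h over 4 h, with its 95% interval from the edgeR fit (circles, filled where the adjusted p was under 0.05) and, as ticks below it, the value when each of the 6 libraries was left out in turn. Hspa8, Cirbp and Rbm3 are filled, at 0.45, 0.58 and 0.88, and the ticks of Hsp90ab1, Hsph1 and Hspd1 fall on both sides of 0.

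By groups that do not overlap, 39.4% of all tested genes separated, since 19.7% of all tested genes were higher in every 16 h liver and 19.7% were lower. Among the 8 chaperones 1 was higher (Hspa8) and 1 lower (Hspe1) by that rule, and both cold-inducible genes were higher. The library-wise contrast between the kinds of gene is a description with no test, since the genes were chosen with earlier results known. The mean log2 CPM of the 8 chaperones minus that of Cirbp and Rbm3 was 1.72, 1.46 and 1.07 in the 16 h livers, against 2.21, 1.99 and 2.22 in the 4 h livers. Each 16 h liver was below each 4 h liver, and the means differed by -0.72 (-0.87 to -0.55 when single libraries were left out). Nearly all of that came from the cold-inducible pair, whose mean log2 CPM was 5.77 ± 0.21 at 16 h and 5.04 ± 0.09 at 4 h (SD, n = 3 each). The chaperone mean was 7.19 ± 0.16 at 16 h and 7.18 ± 0.09 at 4 h, a difference smaller than the SD of either group.

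Within the 16 h group, replicate 3 had the lowest level of 7 of the 8 chaperones and the highest level of both cold-inducible genes. Its contrast of 1.07 was the lowest of the 6 libraries. The chaperone that broke this order was Hspe1, which was highest in replicate 3. In the 4 h group no replicate was lowest or highest throughout: replicate 1 was lowest for Hsp90aa1, Hsp90ab1, Hsph1 and Hspe1, and replicate 2 for Hspa8, Hspa1b and Dnajb1.

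**Figure D3:**
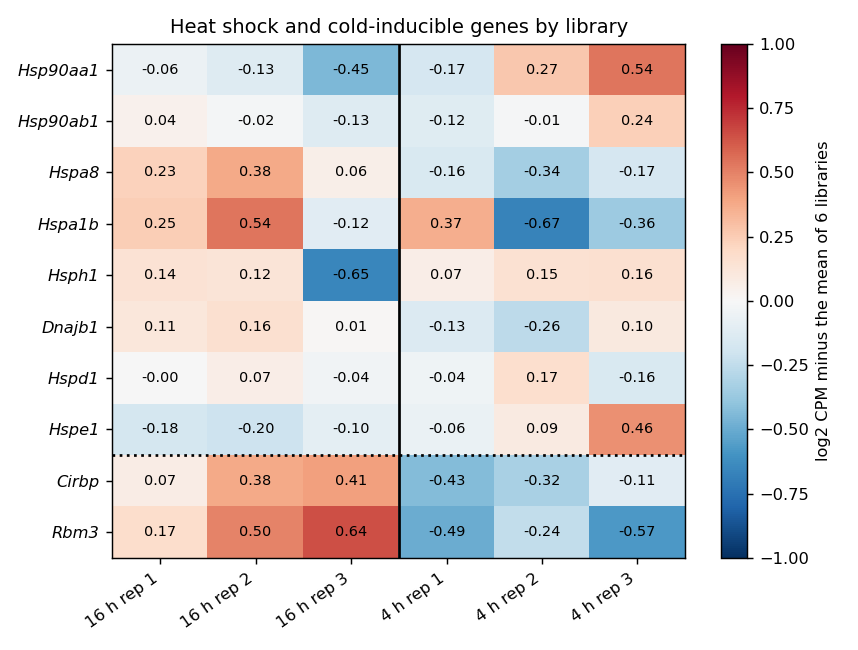
Log2 CPM (prior count 2) of each gene minus its mean over the 6 libraries, with the 16 h libraries left of the solid line and the cold-inducible genes below the dotted one. Cirbp and Rbm3 are above 0 in each 16 h library and below 0 in each 4 h library, and 16 h replicate 3 joins the highest Rbm3 value (0.64) with the lowest Hsph1 value (-0.65).

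Levels between genes can be compared roughly per kilobase of exon, taken over all annotated exons of a gene. That length exceeds the longest transcript of some genes. It was 2604 against 1321 bases for Cirbp, 4698 against 2792 for Rbm3 and 7266 against 4764 for Hsph1. The order of genes at similar levels, such as Rbm3, Dnajb1 and Hsph1, therefore depends on the length used. On the exon scale the order was led by Hsp90ab1 in both groups. CPM per kilobase in the 16 h livers averaged 373 ± 22.3 for Hsp90ab1, 284 ± 31.4 for Hspa8, 174 ± 6.6 for Hspd1 and 80.4 ± 3.1 for Hspe1 (SD, n = 3). The corresponding levels in the 4 h livers were 393 ± 51.5, 208 ± 14.7, 172 ± 19.8 and 102 ± 19.4 CPM per kilobase, where the ranges of Hspa8 and Hspd1 overlapped. Next came Hsp90aa1 with 43.4 ± 6.0 at 16 h and 59.0 ± 14.1 at 4 h, and Cirbp with 19.3 ± 2.4 at 16 h and 12.9 ± 1.5 at 4 h. Rbm3 stood above Dnajb1 and Hsph1 at 16 h, with 12.8 ± 2.1 against 8.38 ± 0.44 and 6.55 ± 1.85 CPM per kilobase. At 4 h these genes were at 6.92 ± 0.84, 7.35 ± 0.95 and 7.58 ± 0.27, and the neighbours in that order overlapped. Hspa1b was last in both groups, with 4.72 ± 1.06 at 16 h, where it overlapped Hsph1, and 3.56 ± 1.39 at 4 h.

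Other genes of the same machinery were read from 8 lists of 109 genes, of which 103 were tested. Of these 8 were higher, 8 lower and 87 did not pass, so 15.5% were called against 18.7% of all tested genes, and the list median was -0.05. Leaving out single libraries gave 3 to 12 higher genes, fewest without 16 h replicate 2 and most without 4 h replicate 3. It gave 2 to 10 lower genes, with 3, 2 and 2 without 16 h replicate 1, 2 or 3.

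The heat shock factors themselves were at low levels. In the list of 7 factors and regulators, 2 fell and 5 did not pass (median -0.33), beside 9.51% lower over all genes. The count of falls was 0 to 2 when single libraries were left out. Hsf1, the master factor, picked after its values were seen, had 17.8 ± 1.4 CPM at 16 h and 19.8 ± 2.5 CPM at 4 h (SD, n = 3 each) and did not pass (-0.15 ± 0.13, edgeR adjusted p = 0.433). Hsf2, the most abundant of the factors and also picked after its values were seen, went the other way. Its level was 33.6 ± 2.6 CPM at 16 h and 27.5 ± 1.4 CPM at 4 h, higher in every 16 h liver. It did not pass (0.29 ± 0.11, edgeR adjusted p = 0.0869). Hsf4, a factor best known from the lens, fell (-0.62 ± 0.17, edgeR adjusted p = 0.028), a call lost without each single 16 h library and without 4 h replicate 3. Dedd2 fell as well (-0.69 ± 0.16, edgeR adjusted p = 0.0104), except without 16 h replicate 3. Hsbp1, which encodes a heat shock factor binding protein and was the most abundant of the list, did not pass (-0.33 ± 0.15).

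Of 15 co-chaperones of HSP90, 1 rose and 2 fell, with 12 not passing (median -0.15), beside 9.18% higher and 9.51% lower over all genes. Fkbp5, an immunophilin that is also a well-known glucocorticoid target, had 81.8, 211 and 193 CPM at 16 h, against 56.2, 37.7 and 41.7 CPM at 4 h (1.84 ± 0.38, edgeR adjusted p = 0.0238). That call was lost on leaving out 16 h replicate 3 or either of 4 h replicates 2 and 3, and also with no filter on low counts, where 0 genes of the list were higher. Its relative Fkbp4 fell to 118 ± 9.6 CPM at 16 h, against 173 ± 36.0 CPM at 4 h (SD, n = 3 each; -0.55 ± 0.15, edgeR adjusted p = 0.0236), a call lost without each single 16 h library. The other gene that fell was the cyclophilin gene Ppid, picked after its values were seen (-0.39 ± 0.12, edgeR adjusted p = 0.0371), whose call held only without 4 h replicate 3.

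In the list of cytosolic HSP70 relatives and exchange factors, 14 of 16 tested genes did not pass (median -0.03). The other 2 rose, beside 9.18% higher over all genes. They were Bag3 (0.52 ± 0.11, edgeR adjusted p = 0.0086) and Bag4 (0.47 ± 0.11, edgeR adjusted p = 0.0103), both of which encode BAG-domain partners of HSP70, and both calls were lost without 16 h replicate 2. The abundant co-chaperone gene St13 did not pass (0.12 ± 0.11). Of 13 genes for J-domain proteins 3 rose and 10 did not pass (median 0.25), beside 9.18% higher over all genes. Leaving out single libraries gave 0 to 5 higher. Dnajb4 rose by 0.42 ± 0.10 (edgeR adjusted p = 0.0134; lost without 16 h replicate 1 or 2) and Dnaja2 by 0.42 ± 0.12 (0.0258; lost without 16 h replicate 2 or 3 or 4 h replicate 2). Dnajc5 (0.32 ± 0.10), picked after its values were seen, also rose and kept its call only without 4 h replicate 3. The most abundant of them, Dnaja1, did not pass (0.11 ± 0.10).

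Mitochondrial chaperones and proteases other than Hspd1 and Hspe1 changed in 2 of 13 cases, both higher, and 11 did not pass (median -0.12). Over all genes 9.18% were higher. Dnaja3, a mitochondrial J-domain protein gene whose exons overlap Vasn over 8.0%, had 137 ± 11.2 CPM at 16 h and 95.8 ± 1.0 CPM at 4 h (SD, n = 3 each; 0.51 ± 0.10, edgeR adjusted p = 0.00611), and it passed in all 6 fits with a library left out. Clpx, the unfoldase of a matrix protease, rose by 0.94 ± 0.26 (edgeR adjusted p = 0.0354), a call lost without 16 h replicate 1 or 3 or 4 h replicate 2. Hspa9, the mitochondrial HSP70, did not pass (0.21 ± 0.11, edgeR adjusted p = 0.198).

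Among the cytosolic chaperonin and prefoldin genes 3 of 14 fell and 11 did not pass (median -0.02), beside 9.51% lower over all genes. Leaving out single libraries gave 0 to 3 lower. All 3 that fell encode subunits of prefoldin, which delivers new actin and tubulin chains. The list's other prefoldin genes, Pfdn4, Pfdn6 and Vbp1, picked after their values were seen, did not pass. Pfdn1 fell by 0.73 on the log2 scale (edgeR adjusted p = 0.00857; lost without 16 h replicate 2). The others were Pfdn5 (-0.44 ± 0.14, lost without each single 16 h library and without 4 h replicate 3, and overlapping Myg1 over 11.8% of its exons) and Pfdn2, picked after its values were seen (-0.39 ± 0.12, called only without 4 h replicate 1, and overlapping Klhdc9 over 27.6%). The most abundant chaperonin gene, Cct8, did not pass (-0.03 ± 0.10). Of 9 small heat shock protein genes 4 were tested, and 0 passed by edgeR or by DESeq2, with 0 at an unadjusted p under 0.05 (median -0.24). Without 4 h replicate 1, 1 gene of the list was lower. Hspb1 was nearest to passing, with 19.3, 18.5 and 11.3 CPM at 16 h against 18.2, 28.6 and 49.1 CPM at 4 h (-0.97 ± 0.41, edgeR adjusted p = 0.159), the highest value being that of 4 h replicate 3. Hspb6 did not pass (0.27 ± 0.17), and Hspb8, the most abundant, was at 125 ± 17.9 CPM at 16 h and 136 ± 10.8 CPM at 4 h (SD, n = 3 each).

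Splicing kinases and splicing factors, through which temperature is known to act on transcripts such as that of Rbm3, changed in 1 of 21 cases (median 0.06). Over all genes 18.7% were called. Tra2a, a splicing activator, had 21.5, 19.0 and 20.2 CPM at 16 h, against 34.0, 37.0 and 28.4 CPM at 4 h (-0.71 ± 0.12, edgeR adjusted p = 0.00261), and it passed in all 6 fits with a library left out. Rsrp1, the most abundant of the list on the mean of all 6 libraries but not within the 16 h group, was lower in every 16 h liver but did not pass (-0.34 ± 0.11, edgeR adjusted p = 0.0556).

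**Figure D4:**
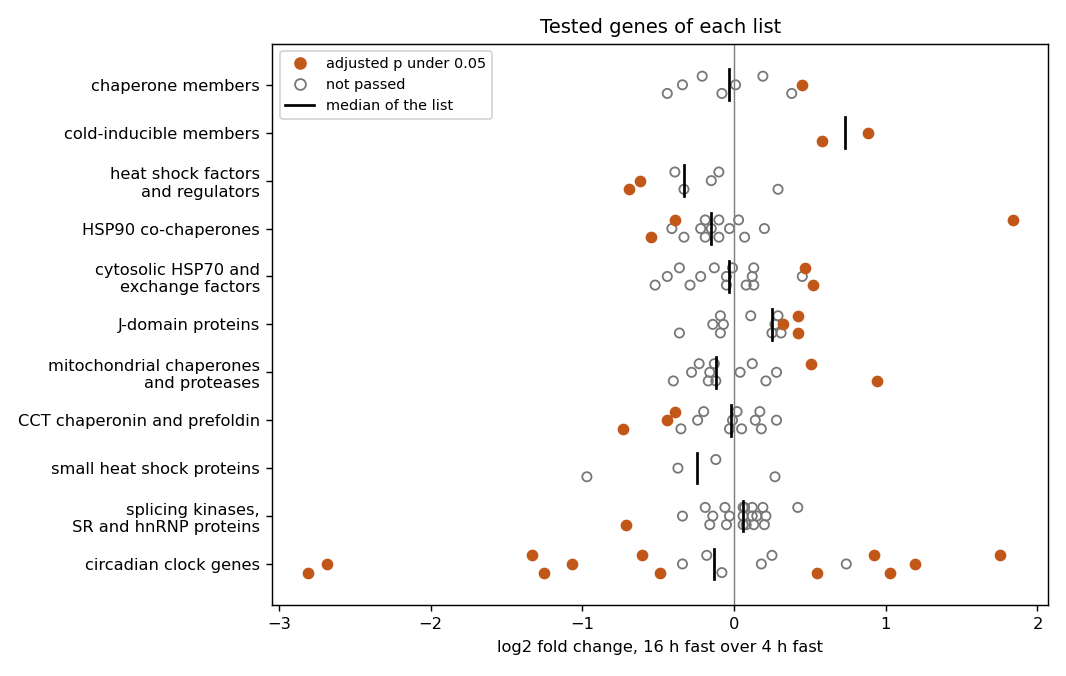
Log2 fold change, 16 h over 4 h, of every tested gene in the chaperone and cold-inducible sets, in the 8 lists of related genes and in the circadian clock list, filled where the edgeR adjusted p was under 0.05, with a bar at each list's median. The clock genes spread from -2.81 to 1.75, while the 8 chaperones lie between -0.44 and 0.45.

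Genes of the circadian clock differed between the same livers, and their part in the values of Cirbp, Rbm3 and Hspa8 was not tested. Of 18 clock genes 5 rose, 7 fell and 6 did not pass, beside 18.7% called over all genes. Leaving out single libraries gave 3 to 5 higher, with 3 without 16 h replicate 3, and 6 to 7 lower. Bhlhe41 fell to 1.23 ± 0.54 CPM at 16 h, against 8.41 ± 1.87 CPM at 4 h, and Bhlhe40 to 41.0 ± 6.1 CPM at 16 h, against 103 ± 9.9 CPM at 4 h (SD, n = 3 each). Arntl, which encodes the clock activator BMAL1 and was picked after its values were seen, as were Dbp, Per2 and Clock below, rose by 1.75 ± 0.27 (edgeR adjusted p = 0.00241). Dbp, which overlaps Sphk2 over 18% of its exons, fell by 2.68 on the log2 scale (edgeR adjusted p = 0.000789). Per2, a clock repressor gene, fell to 14.8 ± 1.6 CPM at 16 h, against 22.6 ± 0.7 CPM at 4 h (-0.61 ± 0.12, edgeR adjusted p = 0.00571). Tef, the most abundant of the list, did not pass (-0.34 ± 0.17). Clock, the target of CIRBP, rose by 0.55 ± 0.13 (edgeR adjusted p = 0.0139), a call lost without 16 h replicate 1 or 3. The clock time of sampling is not given, so the length of the fast and any difference in time of day cannot be told apart here.

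Among immediate early genes, which respond to handling and other acute stimuli, 1 of 13 tested genes rose, 3 fell and 9 did not pass, beside 9.18% higher and 9.51% lower over all genes. Leaving out single libraries gave 0 to 1 higher and 0 to 3 lower, with 0 lower without 16 h replicate 2 or 3. The gene that rose was Fosl2, picked after its values were seen (0.44 ± 0.13, edgeR adjusted p = 0.0363), a call lost without each single 16 h library and without 4 h replicate 2. Egr1 fell to 7.62 ± 0.78 CPM at 16 h, against 33.1 ± 18.7 CPM at 4 h (SD, n = 3 each; -2.10 ± 0.40, edgeR adjusted p = 0.0161), a call lost without 16 h replicate 2 or 3 or 4 h replicate 3. Fos fell by 1.14 on the log2 scale (edgeR adjusted p = 0.0267), a call lost without 16 h replicate 2 or 3 and without 4 h replicate 1 or 2. Its level was low, at 0.86 ± 0.22 CPM at 16 h and 1.92 ± 0.41 CPM at 4 h, with 12 to 48 counts a library. Zfp36, the most abundant, did not pass (0.23 ± 0.25). Markers of other liver cells summed to 106 to 134 CPM at 16 h and 119.7 to 200.3 CPM at 4 h for Kupffer cells (at most 159 CPM without 4 h replicate 3), and to 150 to 202 CPM at 16 h and 161 to 176 CPM at 4 h for sinusoidal endothelium. Red blood cell markers summed to 55.1 to 97.1 CPM at 16 h, against 144 to 179.5 CPM at 4 h. Clec4f, Stab1 and Alas2 were the most abundant of these lists. The part of these cells in the values of the 10 genes was not tested.

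The genes most like each of the 10 were sought by the root mean square difference of log2 CPM, each centred over the 6 libraries. The candidates were 7424 other genes averaging 10 CPM or more. This likeness is a description over 6 libraries that share the same groups. Nearest to Rbm3 were Tdo2 (0.047 log2 units), Cdip1 (0.064) and Epb41 (0.083). Of the 10 genes Cirbp was nearest to Rbm3, at 0.222, and 227 other genes lay nearer. The reverse did not hold, since the member nearest to Cirbp was the chaperone gene Hspa8, at 0.197, with 510 other genes nearer. Nearest to Cirbp were Esrra (0.053), Zhx3 (0.064) and Tango2 (0.078), and nearest to Hspa8 were Ap1g1 (0.026), Secisbp2 (0.063) and Nap1l1 (0.066). For Hsp90aa1 the nearest genes were Dnajb2 (0.084), Fkbp4 (0.089) and Pcbp4 (0.096). The first of these encodes a J-domain protein and the second is the HSP90 co-chaperone gene named above. The member nearest to Hsp90aa1 was Hspe1, at 0.178, with 174 other genes nearer. The nearest gene was Adprhl2 for Hsp90ab1, Ddhd2 for Hspa1b, Csad for Hsph1, Dcaf13 for Dnajb1, Timm21 for Hspd1 and Cuedc2 for Hspe1. None of those is in the lists above.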

How the data were processed

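The deposited values are whole-number counts of reads per gene for each library. Per the submitters' processing notes, reads were handled with Trimmomatic and FastQC, aligned with STAR to GRCm38 (mm10) and counted with HTSeq, and DESeq2 is also named. Versions, the annotation release and the strand setting were not given in the sources used here. In addition, 5 summary lines in each file stayed out of library sizes: reads with no feature were 6.44 to 7.14% and ambiguous reads 5.78 to 6.59% of all reads in them. The multiply aligned line was 0 in every file, so how reads shared by near copies were treated is unknown.

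Genes were named and placed with GENCODE release M21 (GRCm38), and counts were filtered with filterByExpr, scaled with TMM and tested with the robust quasi-likelihood test of edgeR 4.0.16 in R 4.3.3. The Benjamini-Hochberg adjustment ran over all 13812 tested genes. DESeq2 1.42.0, other scalings, no filter, a replicate block and each library left out in turn were alternatives. The script was tested on simulated data. The members and lists were chosen with earlier results of these data known. For every list other than the 10 genes, the tested genes with the 2 smallest adjusted p and the most abundant one are named, and other genes are said to be picked after their values were seen. For markers, the most abundant gene is named. P-values set the difference between the groups against the spread between 3 livers per group, as estimated with information shared across genes.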

Additional observations from a re-analysis of the deposited data

How the results depend on the processing

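Rbm3 passed under all 11 alternatives, Cirbp under 10 and Hspa8 under 8, the losses being the left-out libraries named above. The direction turned, always for genes that had not passed, for Hsp90ab1 without 4 h replicate 3 (0.04), Hsph1 without 16 h replicate 3 (0.01) and Hspd1 with plain library totals (-0.01), without 16 h replicate 2 (-0.01) and without 4 h replicate 3 (-0.05); the cause was not tested. Over the left-out libraries Hsp90ab1 ranged from -0.13 to 0.04, Hsph1 from -0.33 to 0.01 and Hspd1 from -0.05 to 0.13. Leaving out each library in turn gave 671 to 1594 higher and 696 to 1393 lower genes over all genes, against 1268 and 1313 with all libraries. It gave 0 to 2 higher and 0 to 1 lower chaperones, 1 to 2 higher cold-inducible genes, and 3 to 12 higher and 2 to 10 lower genes of the 8 lists. Hsp90aa1 also passed as lower with no filter on low counts, which gave 1 lower chaperone.

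Replicate numbers were not treated as pairs in the main fit, and the correlations do not settle whether they are. The deviations of same-numbered libraries correlated at 0.0876, 0.0933 and 0.0455, and those of other pairs at -0.138 to 0.0662. The 16 h replicates 1 and 2 correlated best with the 4 h library of their own number, and 16 h replicate 3 with 4 h replicate 1 (0.0662). With the numbers as a replicate block, 1352 genes were higher and 1396 lower, and no call among the 10 genes changed: the log2 fold changes were 0.88 for Rbm3, 0.58 for Cirbp and 0.44 for Hspa8. With 3 livers per group, the intervals above set what could be seen, and that of Hspa1b, with 108 to 391 counts a library, was the widest. Over the 8 lists the block gave 6 higher and 11 lower genes, with 0 HSP90 co-chaperones higher, so Fkbp5 was not called.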
